A study of Homo sapiens with 6 samples.

Results

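The genes described here serve the antioxidant and detoxifying response that the transcription factor NRF2 directs. They are 42 genes chosen by their known roles, with earlier results of these data known. Of these, 41 were measured by probe sets that carry only that gene's symbol, among 18132 genes in all. The remaining gene, FTH1, which encodes the heavy chain of ferritin, was not analysed here. The members comprise the pathway's regulators, the enzymes that supply NADPH, the glutathione and thioredoxin systems, superoxide dismutase and catalase with the growth inhibitor OSGIN1, the genes of iron and haem, and the enzymes and exporters of drug metabolism.

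Expression was measured on Affymetrix arrays in cells labelled TPC-1, a human papillary thyroid carcinoma line. The cells were infected with lentivirus carrying either an shRNA against FAM60A, the older symbol of the SIN3-HDAC subunit SINHCAF, or a control shRNA, and the comparison asks which transcripts differ between these 2 labels. There were 3 arrays labelled FAM60A shRNA and 3 labelled control shRNA, numbered 1 to 3 in each group, with 1 array per sample. Neither the hairpin's sequence, nor whether the cells were a clone or a pool, nor whether the samples came from separate cultures is stated in the sources used here, so each p-value reflects variation among these 6 samples only, which may be technical. With 3 arrays per label, their number sets the precision.

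The targeted gene went against its label. SINHCAF was higher under the label FAM60A shRNA than under control shRNA, with 0.63, 0.57 and 0.60 there and -0.58, -0.66 and -0.68 in the arrays labelled control shRNA on the log2 scale (difference 1.24 (SE 0.038, n = 3 per group); limma, adjusted p = 1.08e-06; two-sided exact permutation p = 0.1, the smallest that 3 against 3 arrays allow). Every rise or fall below is therefore one in the arrays labelled FAM60A shRNA relative to those labelled control shRNA, and no lower SINHCAF transcript level accompanied it. Where the labels give TPC-1, the extraction protocol gives DLD1, which is a colorectal cancer line. Of 10 intestinal epithelial markers, 5 rose and 0 fell, with a median log2 value of -0.14 to -0.031 in the arrays labelled control shRNA and 0.048 to 0.11 in those labelled FAM60A shRNA. Of 9 measured thyroid markers, 0 rose and 1 fell. Of 6 leukocyte markers 1 rose, and of 6 fibroblast markers 0 passed with limma, also at an unadjusted p under 0.05. Among all 18132 genes, 19.8% rose and 25% fell past the adjusted threshold. A log2 level of 8 or more, read as a coarse class, was reached by 4 of 20 intestinal probe sets (of CDH17, CDX2 and KRT20). The count was 1 of 24 for thyroid, 1 of 17 for leukocyte and 0 of 24 for fibroblast probe sets. Of the probe sets of all genes, 24.5% reached this level. Below a level of 4 lay 10 of the intestinal, 14 of the thyroid, 9 of the leukocyte and 19 of the fibroblast probe sets. For all genes that share was 25.9%. The part that cell identity plays in the differences below was not tested.

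NRF2, encoded by NFE2L2, is held in the cytoplasm by KEAP1, which presents it to a cullin ubiquitin ligase for degradation. Oxidants and electrophiles modify KEAP1, and NRF2 then accumulates, pairs with a small MAF protein such as MAFG and binds antioxidant response elements, which BACH1 otherwise occupies as a repressor. Its targets make glutathione, regenerate it and thioredoxin with NADPH, store iron, break down haem, and conjugate and export foreign compounds. Some carcinomas carry a constitutively active form of this pathway.

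More of these genes rose than fell in the arrays labelled FAM60A shRNA. NQO1, a quinone reductase, and HMOX1, the inducible haem oxygenase, rose most, by 2.34-fold and 2.30-fold, and SRXN1 and GCLM fell most, by 1.51-fold and 1.39-fold. Of the 41 measured members 24 were past the threshold as higher, 6 as lower, and 11 in neither direction (limma, Benjamini-Hochberg over all genes, threshold 0.05). Among all 18132 genes, 44.9% passed, 19.8% as higher and 25% as lower, against 58.5% higher and 14.6% lower among the members. A change of at least 2-fold that passed was seen in 2 members, NQO1 and HMOX1, and in 1.49% of all genes. The median log2 difference of the members was 0.21, against -0.012 for all genes. The values of one label did not overlap with those of the other in 31 of the 41 members, where 53.2% of all genes showed no overlap.

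The deposited values are relative to each probe set's own median over the 6 arrays, so they hold differences and no level. The rounding of the numbers still gives a coarse class of the log2 level, below 4, from 4 to 8, or 8 and above, which was read as described under the processing of the data. Of the members' 105 probe sets 67 lay at 8 or above and 9 below 4, whereas 24.5% of the probe sets of all genes lay at 8 or above. More highly expressed genes passed the test more often. Of the 6620 genes with a probe set at 8 or above, 28.8% rose and 38.3% fell, against 21 and 5 of the 32 members with such a probe set.

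**Figure D1:**
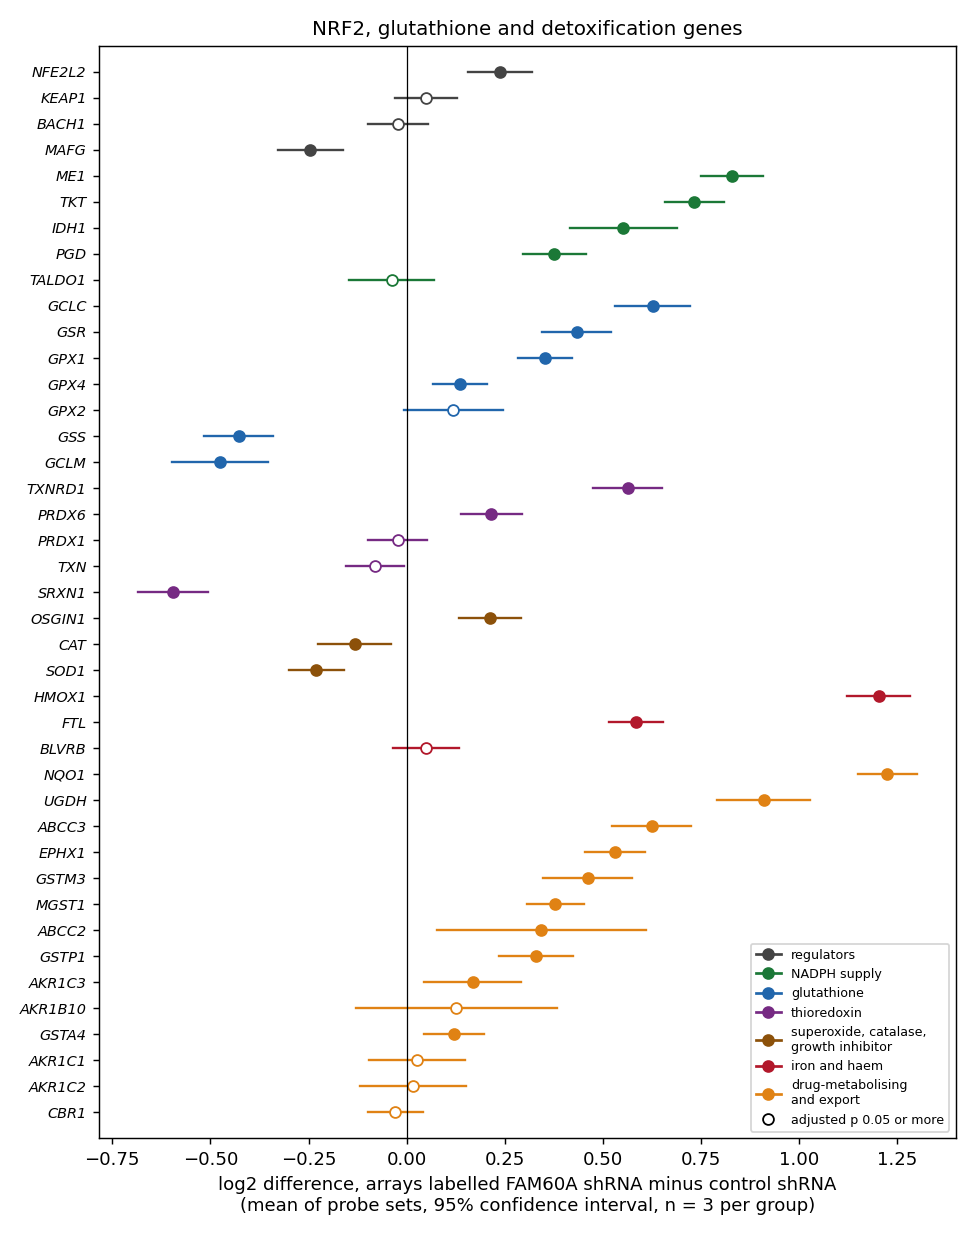
Log2 difference (FAM60A shRNA label minus control shRNA label) of each of the 41 measured members, with its 95% confidence interval (limma, n = 3 per group), by role. Filled points passed an adjusted p of 0.05. NQO1 (1.22) and HMOX1 (1.20) lie farthest to the right and SRXN1 (-0.60) farthest to the left. None of the drug-metabolising genes fell by the mean of its probe sets, although 1 of the 2 probe sets of ABCC3 did.

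Antioxidant response elements share the core TGACNNNGC, and the RefSeq promoter table (GRCh38.p14), which gives 250 bases before and 50 after a gene's start, was searched for it on both strands. At least 1 window was given for 33 of the 42 members, and 12 of these 33 (36.4%) held the core, against 4384 of 27305 genes in the whole table (16.1%) and 18 of 85 other genes of the same pathways (21.2%). The core was found in 8 of 20 members that rose, 1 of 4 that fell and 3 of 9 that did not pass. No window was given for GSR, GSS, PRDX1, PRDX6, SOD1, HMOX1, FTH1, AKR1B10 or ABCC3. Elements outside the windows were not searched for. A match is a description of the letters and not a site of binding. The sites before the gene start are printed here because their cores can be compared letter by letter between members that rose, fell or did not pass. Each is written 5′ to 3′ on the strand that reads the core, which is in capitals, with 10 bases on either side.

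These members with a core rose:
ME1 chr6:83431170-83431198 minus strand: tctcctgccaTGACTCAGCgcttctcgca
TXNRD1 chr12:104215670-104215698 plus strand: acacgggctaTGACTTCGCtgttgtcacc
TXNRD1 chr12:104286920-104286948 minus strand: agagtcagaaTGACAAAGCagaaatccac
IDH1 chr2:208255196-208255224 minus strand: cccctctcgcTGACTCCGCccatcccacg
PGD chr1:10398853-10398881 minus strand: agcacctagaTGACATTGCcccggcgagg
EPHX1 chr1:225825266-225825294 plus strand: tgagattggcTGACTTGGCaggactgtgc
GSTP1 chr11:67583736-67583764 plus strand: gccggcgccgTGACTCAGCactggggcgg
GSTA4 chr6:52995275-52995303 minus strand: ccgggaccgcTGACCTGGCgctttgtgcg
This member with a core fell:
GCLM chr1:93909446-93909474 plus strand: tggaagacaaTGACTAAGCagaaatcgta
These members with a core did not pass the test:
GPX2 chr14:64942849-64942877 plus strand: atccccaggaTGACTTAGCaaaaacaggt
KEAP1 chr19:10502807-10502835 minus strand: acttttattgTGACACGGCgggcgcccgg
KEAP1 chr19:10502784-10502812 plus strand: caggtcaccaTGACTAAGCagagccgggc
CBR1 chr21:36069855-36069883 minus strand: ccagctagccTGACTTTGCagaacccgca

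The TXNRD1 sites come from windows at 2 different starts of the gene. MGST1 had its core after the gene start, and ME1 and TXNRD1 had 1 more each there or across it, and these are not printed. The cores of ME1 and GSTP1 also hold TGACTCA, the element that AP-1 factors recognise, so these letters fit either element. ME1, which rose, and GCLM, which fell, both carried a core within their 250 upstream bases, which are printed here on the gene's strand with the core in capitals, in GCLM as its reverse complement.
ME1 chr6:83431052-83431301 minus strand: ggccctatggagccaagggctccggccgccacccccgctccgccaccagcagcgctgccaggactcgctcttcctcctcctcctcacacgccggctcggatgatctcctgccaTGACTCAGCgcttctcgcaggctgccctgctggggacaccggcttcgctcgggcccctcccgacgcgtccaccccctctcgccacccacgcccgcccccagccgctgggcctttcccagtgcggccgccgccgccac
GCLM chr1:93909431-93909680 minus strand: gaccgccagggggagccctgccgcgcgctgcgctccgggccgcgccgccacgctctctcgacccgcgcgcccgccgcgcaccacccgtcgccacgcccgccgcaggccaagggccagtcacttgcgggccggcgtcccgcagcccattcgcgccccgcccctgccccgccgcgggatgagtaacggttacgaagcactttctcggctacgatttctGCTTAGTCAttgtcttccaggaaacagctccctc

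The regulators moved little, and in both directions. NFE2L2, the gene of NRF2, stood at 0.14, 0.12 and 0.063 in replicates 1 to 3 labelled FAM60A shRNA and at -0.12, -0.16 and -0.11 in those labelled control shRNA, a rise of 0.24 (SE 0.0345, n = 3 per group) or 1.18-fold (limma, adjusted p = 9.96e-04). MAFG, a small MAF partner of NRF2, stood at -0.17, -0.11 and -0.081 against 0.10, 0.14 and 0.13 and fell by 0.25 on the log2 scale, which is 1.19-fold lower (limma, adjusted p = 9.44e-04). The 3 arrays of one label lay apart from the 3 of the other for both genes. KEAP1, the adaptor that marks NRF2 for degradation, had a log2 difference of 0.048 with a 95% confidence interval of -0.031 to 0.13. The repressor BACH1 had -0.022 with an interval of -0.10 to 0.053. Neither passed the test. The array measures transcripts, whereas KEAP1 controls NRF2 as a protein, which was not measured.

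Enzymes of the pathways that supply NADPH, the reducing power behind glutathione and thioredoxin, rose in 4 of 5 cases, and 0 fell. That is 80% higher and 0% lower, against 19.8% and 25% of all genes. The median log2 difference of the group was 0.55. ME1, the cytosolic malic enzyme whose core is printed above, stood at 0.42, 0.42 and 0.38 in the arrays labelled FAM60A shRNA and at -0.38, -0.45 and -0.43 in those labelled control shRNA. It was 1.78-fold higher (95% confidence interval 1.68 to 1.87; log2 difference 0.83 (SE 0.0331, n = 3 per group); limma, adjusted p = 2.84e-06). TKT, the transketolase of the pentose phosphate pathway, stood at 0.36, 0.37 and 0.36 against -0.34, -0.41 and -0.36 and was 1.66-fold higher (log2 difference 0.73 (SE 0.0318, n = 3 per group); limma, adjusted p = 3.67e-06). All 3 arrays of each label were close to one another for both enzymes, and the labels lay far apart.

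IDH1, the cytosolic isocitrate dehydrogenase, spread more widely, with 0.32, 0.27 and 0.19 against -0.19, -0.34 and -0.35. Its difference was 0.55 (SE 0.0575, n = 3 per group), or 1.47-fold (limma, adjusted p = 1.82e-04). Control replicate 1 lay nearest to the other label, and the groups still did not overlap. PGD, the phosphogluconate dehydrogenase that yields NADPH in the oxidative branch of the pentose phosphate pathway, rose by 0.38, and its 2 probe sets both gave 0.38. TALDO1, the transaldolase that works beside TKT in the non-oxidative branch, did not pass, at -0.038 (interval -0.15 to 0.071), whereas the interval of TKT was 0.66 to 0.81.

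**Figure D2:**
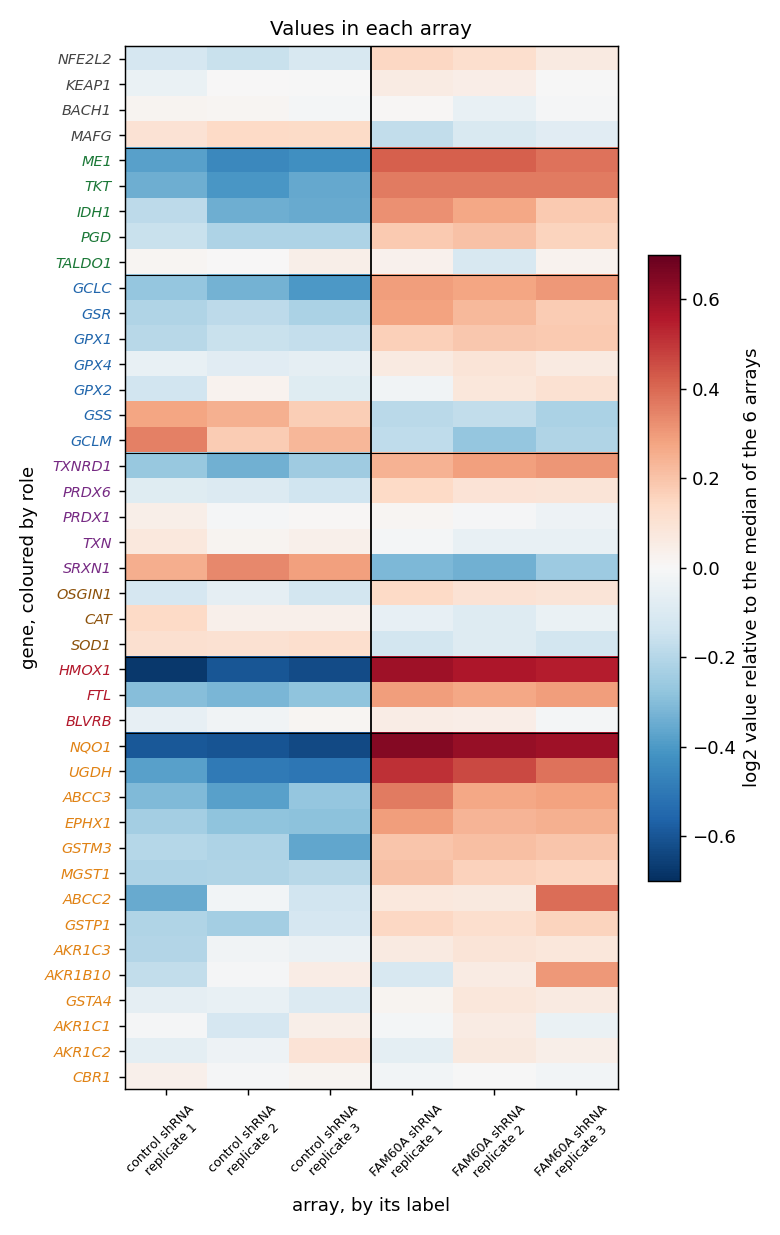
Log2 value of each member in each of the 6 arrays, relative to the median of the 6, in colour, with genes ordered by role and arrays by label. The rows of ME1, TKT, HMOX1 and NQO1 change colour cleanly between labels, GSS, GCLM and SRXN1 show the opposite order, and ABCC2 and AKR1B10 vary within a label.

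In the glutathione system, 4 of 7 members rose, 2 fell and 1 did not pass. That is 57.1% higher and 28.6% lower, against 19.8% and 25% of all genes. Both genes that fell serve the synthesis of glutathione. Glutamate-cysteine ligase makes the first, rate-limiting step and consists of a catalytic subunit, GCLC, and a modifier subunit, GCLM. GCLC stood at 0.29, 0.27 and 0.30 in the arrays labelled FAM60A shRNA and -0.27, -0.33 and -0.40 in those labelled control shRNA, 1.54-fold higher (log2 difference 0.63 (SE 0.0403, n = 3 per group); limma, adjusted p = 1.85e-05). GCLM stood at -0.18, -0.27 and -0.21 against 0.35, 0.18 and 0.23 and was 1.39-fold lower (95% confidence interval 1.28 to 1.51; log2 difference -0.48 (SE 0.0517, n = 3 per group); limma, adjusted p = 2.26e-04). The subunits of the same enzyme thus moved in opposite directions, each without overlap between the labels. The 4 probe sets of GCLC lay between 0.37 and 0.75 and the 2 of GCLM at -0.60 and -0.36, and all 6 passed in the direction of their gene.

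GSS, glutathione synthetase, which completes the synthesis, also fell, by 0.43 on the log2 scale (SE 0.037, n = 3 per group; limma, adjusted p = 7.79e-05), with its 2 probe sets at -0.44 and -0.42. GSR, the reductase that returns oxidised glutathione to its reduced form with NADPH, stood at 0.28, 0.23 and 0.18 against -0.21, -0.18 and -0.22 and rose by 0.43 (SE 0.0369, n = 3 per group) or 1.35-fold (limma, adjusted p = 6.87e-05). The arrays of the labels did not overlap in either gene.

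The glutathione peroxidases use glutathione to remove peroxides. GPX1, the ubiquitous cytosolic form, rose by 0.35, and GPX4, which reduces lipid peroxides in membranes, rose by 0.13 (limma, adjusted p = 6.04e-05 and 0.007). GPX2, the epithelial and gastrointestinal form, did not pass, at 0.12 (interval -0.0080 to 0.25). It passed without control replicate 2, at 0.16. GPX1 was measured by probe sets that can match several transcripts and by no other.

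In the thioredoxin system, 2 of 5 members rose, 1 fell and 2 did not pass. That is 40% higher and 20% lower, against 19.8% and 25% of all genes. TXNRD1, the cytosolic thioredoxin reductase, stood at 0.25, 0.29 and 0.31 in the arrays labelled FAM60A shRNA and -0.27, -0.34 and -0.25 in those labelled control shRNA, 1.48-fold higher (95% confidence interval 1.39 to 1.57; limma, adjusted p = 2.02e-05), and its 3 probe sets lay between 0.54 to 0.58. SRXN1, the sulfiredoxin that restores over-oxidised peroxiredoxins, ran the other way, at -0.31, -0.34 and -0.26 against 0.26, 0.33 and 0.29. It was 1.51-fold lower (95% confidence interval 1.42 to 1.61; log2 difference -0.60 (SE 0.0374, n = 3 per group); limma, adjusted p = 1.66e-05), the largest fall among the members, and rests on 1 probe set. Both genes separated the labels in every array. TXN, the thioredoxin that TXNRD1 reduces, did not pass, at -0.081 (limma, adjusted p = 0.078), although its values did not overlap between the labels and its 5 probe sets lay within -0.10 to -0.050.

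PRDX6, a peroxiredoxin that uses glutathione, stood at 0.14, 0.10 and 0.091 against -0.085, -0.10 and -0.14 and rose by 0.22 (SE 0.0325, n = 3 per group) (limma, adjusted p = 0.00119). Its mean covers 4 probe sets that disagreed. A pair gave 0.46 and 0.38 and passed, and the other pair gave -0.019 and 0.040 and did not, although all 4 lay at a level of 8 or above. PRDX1, the abundant peroxiredoxin that SRXN1 restores, had -0.023 with an interval of -0.10 to 0.052 and did not pass.

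Of SOD1, CAT and OSGIN1, 1 rose and 2 fell. That is 33.3% higher and 66.7% lower, against 19.8% and 25% of all genes. SOD1, the cytosolic superoxide dismutase, stood at -0.13, -0.091 and -0.13 in the arrays labelled FAM60A shRNA and 0.11, 0.11 and 0.12 in those labelled control shRNA, 1.17-fold lower (log2 difference -0.23 (SE 0.0296, n = 3 per group); limma, adjusted p = 5.39e-04). OSGIN1, a growth inhibitor induced by oxidative stress, stood at 0.14, 0.10 and 0.092 against -0.12, -0.063 and -0.13 and rose by 0.21 (SE 0.0334, n = 3 per group) (limma, adjusted p = 0.00145). CAT, catalase, which breaks down hydrogen peroxide, stood at -0.056, -0.089 and -0.047 against 0.14, 0.034 and 0.034, a difference of -0.13 (SE 0.0392, n = 3 per group) (limma, adjusted p = 0.0286). Only 1 of its 2 probe sets passed, at -0.23, and the other gave -0.038. The labels did not overlap in any of the 3 genes, as in 53.2% of all genes. Control replicate 1 of CAT stood well above the other arrays of its label. CAT lost its call without that array, where the difference was -0.098, without any 1 of the arrays labelled FAM60A shRNA (-0.14 to -0.12), after another quantile normalization (-0.11) and after cyclic loess (-0.11).

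Of the iron and haem genes, 2 of 3 rose and 0 fell. That is 66.7% higher and 0% lower, against 19.8% and 25% of all genes. HMOX1, which opens the haem ring and frees its iron, stood at 0.59, 0.56 and 0.55 in the arrays labelled FAM60A shRNA and -0.68, -0.60 and -0.63 in those labelled control shRNA. It was 2.30-fold higher (95% confidence interval 2.18 to 2.43; log2 difference 1.20 (SE 0.0343, n = 3 per group); limma, adjusted p = 8.43e-07), and its 3 probe sets, all at a level of 4 to 8, gave 1.10, 1.10 and 1.41. FTL, the light chain of ferritin, which stores iron, stood at 0.29, 0.27 and 0.29 against -0.30, -0.32 and -0.28 and rose by 0.58 (SE 0.0295, n = 3 per group) (limma, adjusted p = 6.59e-06). The arrays of each label lay close together, and the labels did not overlap. The 8 probe sets of FTL, all of kinds that can match several transcripts, all passed as higher but fell into a lower set from 0.37 to 0.39 and a higher set from 0.70 to 0.90. BLVRB, a biliverdin reductase, had 0.050 with an interval of -0.034 to 0.13 and did not pass.

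By the mean of their probe sets, genes of drug metabolism and export rose in 10 of 14 cases, 0 fell and 4 did not pass. That is 71.4% higher and 0% lower, against 19.8% and 25% of all genes. The median log2 difference of these 14 genes was 0.34. ABCC3 counts as a rise here, although 1 of its 2 probe sets fell. NQO1, which reduces quinones with NADPH or NADH and is the classical NRF2 target, stood at 0.64, 0.61 and 0.59 in the arrays labelled FAM60A shRNA and -0.59, -0.60 and -0.63 in those labelled control shRNA. It was 2.34-fold higher (95% confidence interval 2.22 to 2.46; log2 difference 1.22 (SE 0.0315, n = 3 per group); limma, adjusted p = 6.35e-07), the largest rise among the members, and its 2 probe sets gave 0.99 and 1.46. UGDH, which makes the glucuronic acid donor for conjugation, stood at 0.51, 0.46 and 0.38 against -0.38, -0.49 and -0.51 and was 1.88-fold higher (log2 difference 0.91 (SE 0.0503, n = 3 per group); limma, adjusted p = 9.58e-06). No array of one label came near those of the other in either gene.

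EPHX1, the microsomal epoxide hydrolase, rose by 0.53 (limma, adjusted p = 1.49e-05). Among the enzymes that join glutathione to foreign compounds, GSTM3 rose by 0.46, the membrane-bound MGST1 by 0.38 and GSTP1 by 0.33, with each of their probe sets past the test. GSTA4, which acts on lipid peroxidation products, had 0.12 (limma, adjusted p = 0.0185). Only 1 of its 4 probe sets passed, at 0.29, and 2 of the others lay below a level of 4. GSTA4 lost its call without control replicate 3 (0.11) and without replicates 2 (0.11) or 3 (0.12) labelled FAM60A shRNA. Its median probe set gave 0.086, and its probe sets that are specific to the gene gave 0.068, and neither passed. These specific probe sets are the 2 that lay below a level of 4.

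Of the 4 aldo-keto reductases, which reduce carbonyl compounds and steroids, 1 rose and 3 did not pass. AKR1B10 (0.13), AKR1C1 (0.026) and AKR1C2 (0.016) did not pass, and AKR1C3 had 0.17 (limma, adjusted p = 0.0342). Their 9 probe sets included 6 below a level of 4 and 0 at 8 or above. The AKR1C genes are closely related in sequence, so that their probe sets may read one another's transcripts. AKR1C3 lost its call without any 1 of the arrays labelled FAM60A shRNA, with differences from 0.16 to 0.18. Only 1 of its 2 probe sets passed, at 0.21, and the other gave 0.13. AKR1B10 spread widely, with -0.11, 0.056 and 0.31 against -0.17, -0.0073 and 0.051, and its interval was -0.13 to 0.38. CBR1, a carbonyl reductase with 7 probe sets from -0.11 to 0.055, had -0.029 and did not pass (interval -0.10 to 0.041).

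ABCC2 and ABCC3 encode pumps that export glutathione and glucuronide conjugates, and both carry a reservation. ABCC3 stood at 0.36, 0.27 and 0.28 in the arrays labelled FAM60A shRNA and -0.31, -0.38 and -0.27 in those labelled control shRNA, a mean rise of 0.62 (SE 0.0426, n = 3 per group) (limma, adjusted p = 2.42e-05). That mean joins 2 probe sets that passed in opposite directions. The one at a level of 4 to 8 gave 0.90, 0.80 and 0.80 against -0.80, -0.95 and -0.83, a difference of 1.69, and the one at a level of 8 or above gave -0.18, -0.26 and -0.24 against 0.18, 0.19 and 0.29, a difference of -0.44. Both are tight between replicates, so the direction of ABCC3 depends on the probe set. The former is of a kind that can match several transcripts, and with the latter alone the gene fell.

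For ABCC2 the spread between replicates was wide, at 0.073, 0.066 and 0.39 against -0.35, -0.017 and -0.13, with a difference of 0.34 (SE 0.113, n = 3 per group) (limma, adjusted p = 0.043). Of its 2 probe sets 1 passed, at 0.54, and the other, at 0.15, did not. Replicate 3 labelled FAM60A shRNA was the highest array and control replicate 1 the lowest, as they also were for AKR1B10. ABCC2 lost its call without control replicate 1 (0.25) or 3 (0.36) and without replicate 1 (0.39) or 3 (0.24) labelled FAM60A shRNA.

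**Figure D3:**
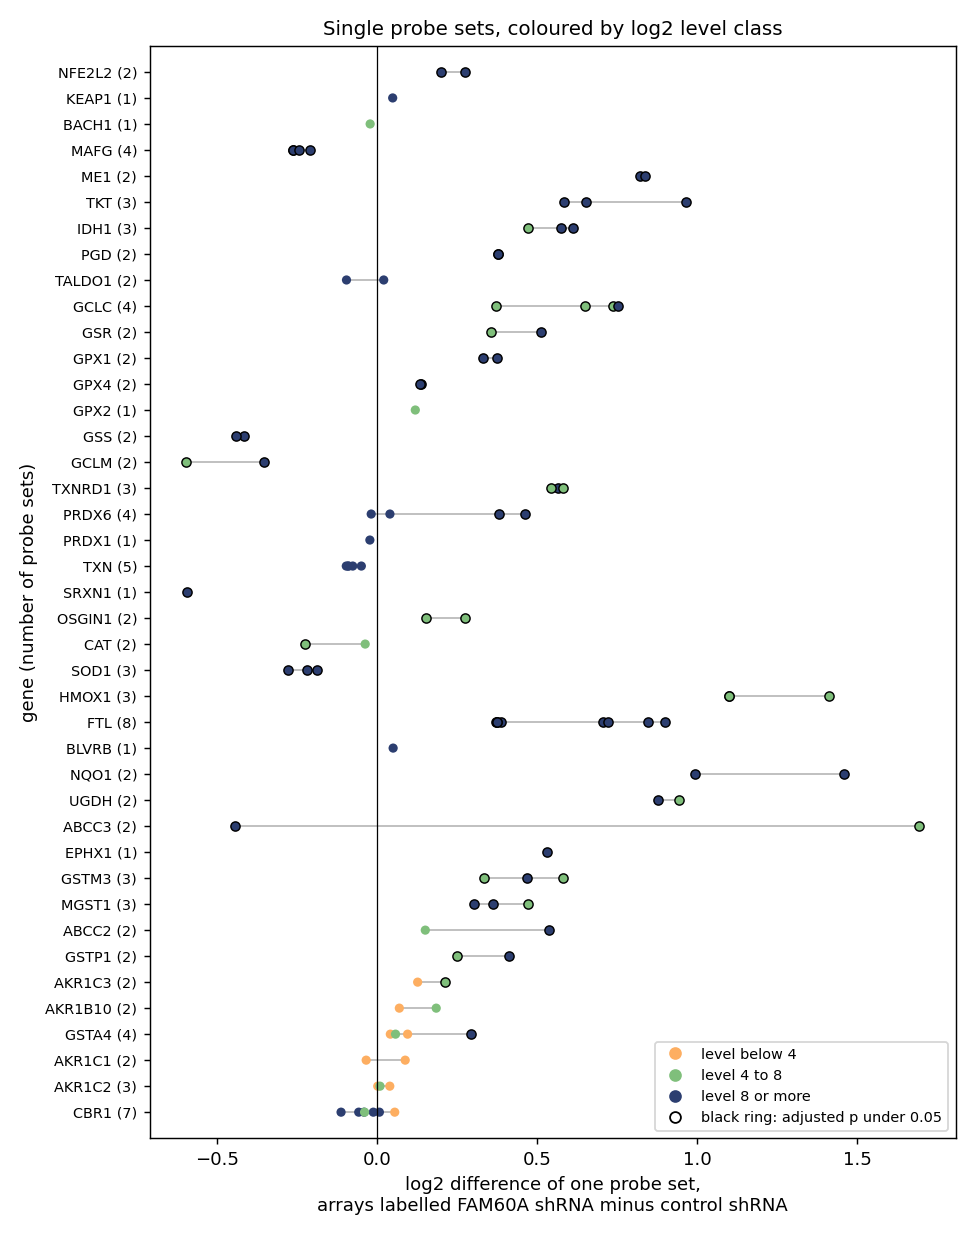
Log2 difference of every probe set of the members, arrays labelled FAM60A shRNA minus control shRNA, with the number of probe sets after each gene, the coarse log2 level in colour, and a black ring for an adjusted p under 0.05. Probe sets of most genes cluster, those of FTL form a lower and a higher set, 2 of 4 of PRDX6 lie near 0, and those of ABCC3 lie at -0.44 and 1.69.

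Other genes of the same pathways, listed by role, went both ways. These lists, like the members, were chosen with earlier results of these data known. Of 106 listed, 92 were measured, 31 rose, 26 fell and 35 did not pass. That is 33.7% higher and 28.3% lower, with a median log2 difference of 0.017. GPX8 counts here as higher, and TIGAR, NADK, MSRA and ABCC5 count as not passing. Each of these genes had probe sets that passed in opposite directions. Among all genes, 19.8% were higher and 25% lower, and among the members 58.5% and 14.6%, and these shares were not tested against one another.

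Around NRF2, 5 of 9 regulators rose and 3 fell, or 55.6% and 33.3%, against 19.8% and 25% of all genes. SQSTM1, the autophagy receptor p62 that binds KEAP1, rose by 0.67, and NFE2, a relative of NRF2, had 0.22. NFE2 lost its call without control replicate 1 (0.20) or 3 (0.21) and without replicate 2 (0.19) or 3 (0.18) labelled FAM60A shRNA. RBX1, the RING subunit of the ligase that KEAP1 serves, fell with -0.45, and BTRC, the adaptor of another ligase that degrades NRF2, with -0.52 (limma, adjusted p = 5.43e-05 and 1.19e-05). CUL3, the cullin that KEAP1 joins, fell with -0.28 and was named after its value was seen (limma, adjusted p = 4.89e-04), whereas KEAP1 itself did not pass. The 4 probe sets of CUL3 ran from -0.59 to -0.10, and 2 of them passed.

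Among 11 other NADPH genes, 2 rose, 2 fell and 7 stayed within the threshold. That is 18.2% in each direction, against 19.8% higher and 25% lower among all genes. The mitochondrial malic enzyme ME3 (0.53) and PGLS (0.49), the lactonase of the pentose phosphate pathway, rose, and RPIA (-0.34), an isomerase of its non-oxidative branch, fell. The 3 probe sets of ME3 ran from 0.19 to 1.09, and 2 of them passed. IDH2, the mitochondrial counterpart of IDH1, had -0.12, against 0.55 for IDH1. It lost its call without control replicate 1 (-0.11) or 3 (-0.13) and without replicate 1 (-0.12) or 3 (-0.10) labelled FAM60A shRNA, after cyclic loess (-0.097) and with probe sets specific to the gene (-0.087).

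Among 14 other glutathione genes, 6 rose and 6 fell. That is 42.9% in each direction, against 19.8% higher and 25% lower among all genes. CHAC1, which degrades glutathione, rose by 0.81, and GPX3, the secreted peroxidase, by 0.60. HAGH, which hydrolyses the glutathione thioester that the glyoxalase pathway makes, fell by 0.94 on the log2 scale. This was the largest fall among the members and the other genes of the pathways. The glutaredoxin GLRX2 had -0.45. The subunits of the cystine importer, SLC7A11 (0.41) and SLC3A2 (0.42), both rose and were named after their values were seen. The 3 probe sets of SLC7A11 ran from 0.046 to 0.63, and 2 of them passed. Of 12 other thioredoxin genes, 3 rose and 5 fell, or 25% and 41.7%, against 19.8% and 25% of all genes. TXNIP (0.94), which binds and inhibits thioredoxin, and SESN2 (0.71), a stress-induced sestrin, rose, while MSRB2 (-0.50), a methionine sulfoxide reductase, and the mitochondrial thioredoxin TXN2 (-0.34) fell.

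Beside SOD1, the copper chaperone CCS that loads it had -0.22 and fell, and OSGIN2, a relative of OSGIN1, rose by 0.28. Among 13 other iron and haem genes, 2 rose, 3 fell and 8 stayed within the threshold. Their shares, 15.4% higher and 23.1% lower, lay near the 19.8% and 25% of all genes. TFRC, the transferrin receptor, fell with -0.42, and ACO1, which serves as iron regulatory protein when it lacks its iron-sulfur cluster, with -0.49, although its probe sets ran from -0.76 to -0.015. CPOX (0.17), an enzyme of haem synthesis, and the iron importer SLC11A2 (0.16) rose. SLC11A2 lost its call with the median of its probe sets (0.076) and with those specific to the gene (0.071).

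In drug metabolism, 12 of 30 other genes rose and 6 fell, or 40% and 20%, against 19.8% and 25% of all genes. GSTM4, a glutathione transferase of the mu class, rose by 1.31 (SE 0.0421, n = 3 per group), more than any of the 41 members, and ALDH3A1, an aldehyde dehydrogenase, by 0.98 (limma, adjusted p = 1.27e-06 and 8.76e-06). The transferase GSTZ1 (-0.38) and PIR (-0.48), the iron-binding protein pirin, fell. Mu-class transferases resemble one another, and their probe sets may read related transcripts.

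**Figure D4:**
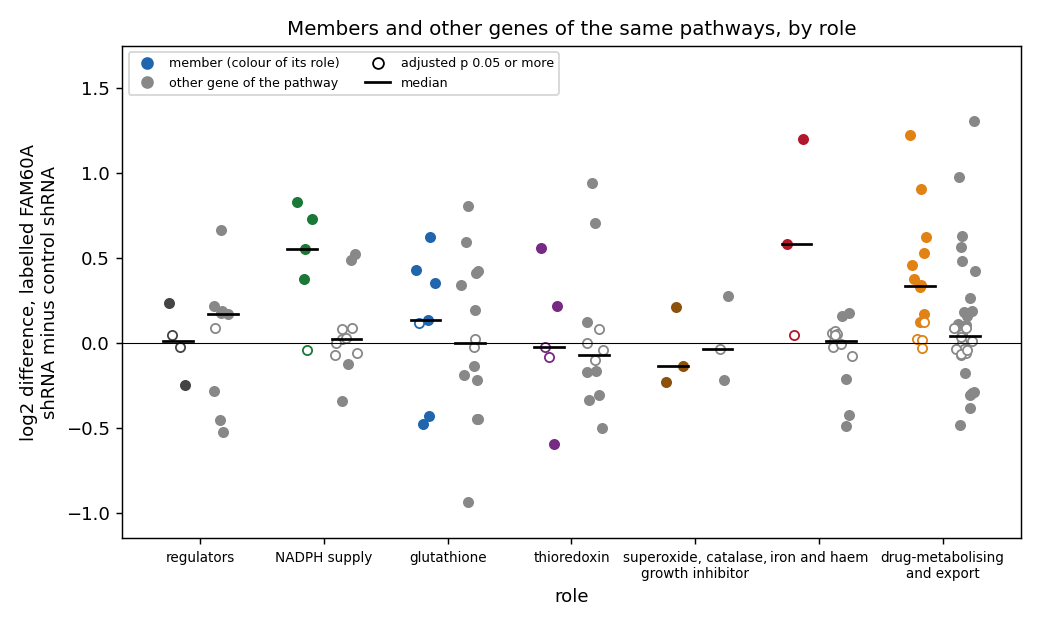
Log2 difference, arrays labelled FAM60A shRNA minus control shRNA, of members (coloured) and of other genes of the same pathways (grey) by role. Open points did not pass the test and bars are medians, which are 0.55 for the NADPH members, 0.34 for the drug-metabolising members and 0.58 for the iron and haem members, and 0.022, 0.044 and 0.011 for the other genes of these roles.

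**Figure D5:**
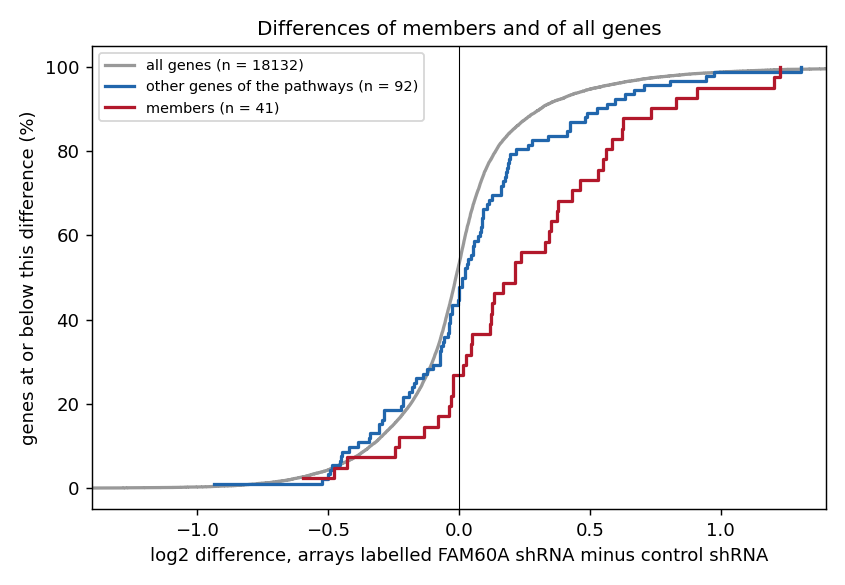
Share of genes, in percent, at or below each log2 difference, for the 41 members, 92 other genes of the pathways and all 18132 genes. The medians are 0.21, 0.017 and -0.012, and the curve of the members runs to the right of the other curves between about the median and its upper end.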

How the data were processed

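RNA from the 6 samples was biotin-labelled and run on Affymetrix arrays, as the labels' protocols say. The authors deposited log2 values, and the submitters' processing notes name RMA. Which software ran it, and with which chip definition, is not given in the sources used here. Deposited values of 49395 probe sets were centred, with each probe set's median over the 6 arrays at 0 to within 5e-07, and base 2 was taken because RMA gives it. Array medians lay between -0.015 and 0.010.

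A gene was the mean of its probe sets with 1 symbol in the platform annotation (44994 probe sets, of which 6 controls were left out; 1832 had several symbols and 2569 none). Groups came from the sample titles. All 18132 genes were fitted with lmFit and eBayes of limma 3.58.1 (R 4.3.3), p-values were adjusted by Benjamini-Hochberg with a threshold of 0.05, and single probe sets were fitted over all probe sets. The fit was tested on simulated data. Members and lists were chosen with earlier results of these data known.

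Named genes followed a rule: values in every array for up to 3 members per role with the largest difference past the threshold and for members with opposed probe sets, and up to 2 other pathway genes per role and direction. The array values of ABCC2 and AKR1B10 fall outside it and were chosen after their values were seen, as were CUL3, SLC7A11 and SLC3A2. Level classes were read from the step between storable single-precision values, which grows at 2, 4, 8 and 16. The 776 probe sets with the step of 16 and over, beyond the range of RMA, were counted in the highest class, so some classes err upward. The split of genes by level class was chosen after seeing the data. Same-numbered arrays deviated together weakly (r = 0.16, 0.059 and 0.078 across genes), so the numbers were not taken to pair samples. Alternatives covered normalization, the choice and filter of probe sets, the replicate block, robust eBayes and leaving out each array.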

Additional observations from a re-analysis of the deposited data

How the results depend on the processing

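Of the 30 members past the threshold, 25 kept their direction and their call in all 15 alternatives that could be fitted for them; the exceptions were ABCC3, ABCC2, AKR1C3, GSTA4 and CAT. Without probe sets named x_at or s_at ABCC3 reversed to -0.44, and 1 iron and haem member was called in place of 2, because FTL has no other probe set; GPX1, TXN, SRXN1 and UGDH could not be fitted there either. Leaving out each array in turn gave 21 to 25 members higher and 5 to 6 lower. For all genes past the threshold, the count ran from 6999 to 8412 over the alternatives. The share of higher genes among all calls ran from 44.0% to 50.2%, and among the members' calls from 76.0% to 82.8%. With the replicate number as a block, 24 members were higher and 6 lower, all genes past the threshold numbered 8170, and no member's call changed; each array correlated best with its own number. Centred values give no level finer than the classes.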
